A study of Drosophila melanogaster with 10 samples.

Results

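The genes described here are 10 genes of the piRNA pathway of *Drosophila melanogaster*, namely *piwi*, *aub*, *AGO3*, *zuc*, *armi*, *vas*, *spn-E*, *krimp*, *qin* and *rhi*. They were taken by name from a table of 17402 genes, with earlier results of these data known, and all 10 had a row in it. The table held polyadenylated RNA of whole female larvae of the third instar, in 10 libraries from 5 strains that differ at *AGO2*, which encodes the Argonaute of the siRNA pathway. The strains were *w*, which served as the control, AGO2 51B, AGO2 51B/+, AGO2 V966M and AGO2 V966M/+, with 2 libraries each, numbered replicate 3 and replicate 4 in every strain. 51B is a null allele and V966M changes a residue of the PIWI domain and impairs slicing, and no label gives the rest of the genotype or a common background of the strains. Nothing in the labels says that the 2 libraries of a strain came from separate cultures, so the tests measure the spread between these libraries, which may in part be technical.

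Piwi-interacting RNAs (piRNAs) are small RNAs that guide Argonaute proteins of the Piwi family to transposon transcripts, chiefly in the gonads. Long precursors are transcribed from clusters of transposon fragments, exported, and cut into piRNAs at the mitochondrial surface. In germ cells the cytoplasmic Piwi proteins also cut transposon RNA and precursor RNA in turn, in the perinuclear granules called nuage, a cycle known as ping-pong. Somatic cells around the germ cells use only the first route, with Piwi itself, and most other tissues of the fly are known for little of either.

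The RNA of the targeted gene went against the labels of the 51B strains. *AGO2* measured 229 and 152 CPM (reads per 1000000 counted reads, scaled with TMM factors) in replicates 3 and 4 of *w*, 105 and 99.7 CPM in the libraries labelled 51B, and 3.85 and 2.84 CPM in those labelled 51B/+. The libraries labelled V966M had 236 and 163 CPM and those labelled V966M/+ 249 and 194 CPM. *AGO2* was lower in 51B/+ than in *w* (log2 fold change -5.82, SE 0.34, adjusted p = 0.000124), and the near absence of its RNA thus stood in the libraries labelled as heterozygous. Without replicate 3 of 51B/+ the difference was -6.06 (adjusted p = 0.00217). In the sample titles the allele name is doubled wherever the strain label has a plus sign. All strain names below are those of the labels.

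The libraries held 22337432 to 60886803 counts, and of each strain replicate 3 was sequenced more deeply. Counting ignored strand, so a read in bases that 2 genes share on opposite strands has no certain origin. One library stood apart. In replicate 3 of 51B/+, 40 testis genes summed to 108 CPM, against 17.6 to 25.7 CPM in the other 9 libraries, and 18 reads fell on Y-linked genes, against 0 or 1 elsewhere. For the single piRNA genes, differences of 51B/+ from *w* are given with and without it below. Of 19 female germline genes 18 were matched to a row, and 14 had enough reads to test. None of these 14 was called against *w* in any strain, beside 0.125% to 1.79% of all genes tested. So few calls among all genes leave little to expect from a list of this size. In this list *osk* had 0 or 1 reads and *pgc* 0 to 2 reads per library, while *BicC* and *cup* had 0 in all 10, which allows up to 3 reads in each library. *bam* (0.0844 to 0.504 CPM), *bgcn* (0.295 to 0.898 CPM) and *orb* (0.849 to 1.82 CPM) were low but present, and *ovo* (17.3 to 40.8 CPM) and *bru1* (13.0 to 21.1 CPM) were higher. The summed level of the germline list, 182 to 303 CPM, came chiefly from *Rbp9*, *stau* and *mei-P26*, which are also expressed outside the germ line.

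Of the 10 genes, *armi* had by far the highest level in larval RNA. Per kilobase of exon not shared with another counted gene, its median level over the 10 libraries was 5.18 CPM, and its range of 4.19 to 6.04 did not overlap that of any other of the 10 genes. *zuc* followed at a median of 1.58 CPM per kb (1.23 to 2.26), again apart from the genes below it. The medians of *piwi*, *AGO3*, *spn-E*, *krimp*, *vas*, *aub*, *rhi* and *qin* lay, in that order, between 0.486 and 0.0976 CPM per kb, and the ranges of neighbours in this order overlapped. *AGO1*, the Argonaute of the microRNA pathway, had a median of 16.1 CPM per kb and *AGO2* of 41.1 CPM per kb. By mean CPM, *armi* ranked above 64.1% of the 13551 genes tested, and the other members of the group above 19.5% to 33.7%. The summed level of the 10 genes was 26.3 to 38.0 CPM per library. In RNA of whole larvae, fewer cells of a type and less RNA per cell cannot be told apart.

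**Figure D1:**
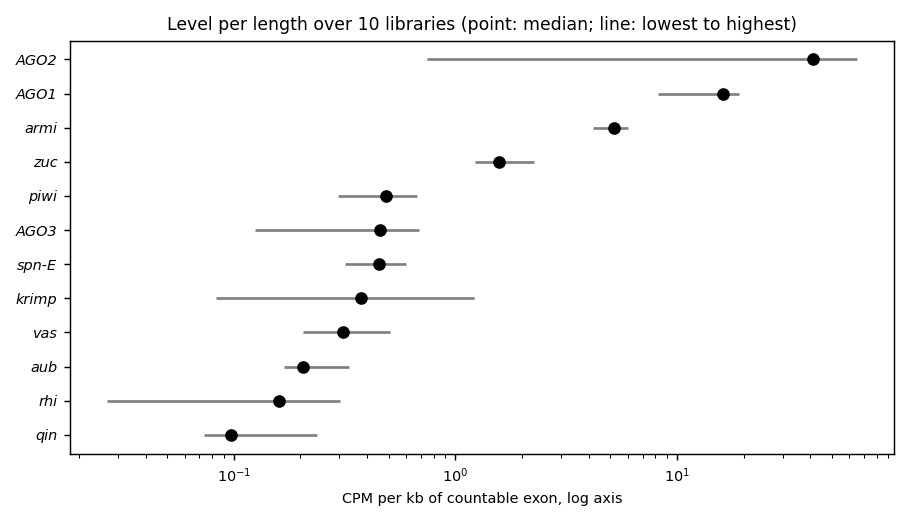
Median (point) and range (line) over the 10 libraries of the level per kilobase of countable exon, in CPM per kb on a log axis, for the 10 piRNA pathway genes and the Argonautes *AGO1* and *AGO2*. *armi* sits at 5.18 CPM per kb and *zuc* at 1.58 CPM per kb, and the other 8 overlap from one to the next between 0.486 and 0.0976 CPM per kb.

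The Argonautes of the pathway come first. *piwi* encodes the nuclear Argonaute that silences transposons at the level of chromatin, and lies on chromosome 2L at 10982205 to 10987420 of dm6, on the minus strand. It measured 1.90 and 1.35 CPM in replicates 3 and 4 of *w* (104 and 32 reads), 1.63 and 1.94 CPM in 51B, and 0.854 and 1.01 CPM in 51B/+. The V966M libraries had 1.39 and 1.42 CPM and the V966M/+ libraries 1.73 and 1.36 CPM. Both libraries of 51B/+ were thus below all other 8 libraries, while the other strains overlapped *w*. The difference between 51B/+ and *w* was -0.83 on the log2 scale (SE 0.31, 95% interval -1.52 to -0.14), with an unadjusted p of 0.024 and an adjusted p of 0.342 by the quasi-likelihood test of edgeR, and it did not pass the threshold of 0.1. Without replicate 3 of 51B/+ it was -0.70 (SE 0.41, unadjusted p = 0.125). The end of *piwi* shares 191 exon bases, 6.2% of its exons, with *SCAR* on the opposite strand.

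*aub* encodes a cytoplasmic Piwi protein that cuts transposon RNA in the ping-pong cycle, and it lies close to *piwi*, on chromosome 2L at 10997819 to 11001476. Its level was 0.949 and 0.590 CPM in *w*, 0.681 and 0.745 CPM in 51B, 0.526 and 0.569 CPM in 51B/+, 0.496 and 0.531 CPM in V966M, and 0.612 and 0.970 CPM in V966M/+. The log2 fold changes against *w* ran from -0.61 in V966M to 0.00 in V966M/+, each with an SE near 0.42. The value for 51B/+ was -0.52, and -0.47 without its replicate 3. These values rest on 12 to 52 reads per library, and no adjusted p against *w* was under 0.700.

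*AGO3* encodes the partner of Aub in that cycle. Its exons spread over 135048 bases of chromosome 3L, from 23554593 to 23689640. The level was 1.59 and 2.19 CPM in *w*, 1.69 and 1.49 CPM in 51B, and 1.23 and 1.05 CPM in 51B/+. In both V966M strains the 2 libraries parted, with 1.49 and 0.398 CPM in V966M and 1.42 and 0.485 CPM in V966M/+, replicate 3 being the higher each time. The log2 fold changes of -0.91 (V966M) and -0.95 (V966M/+) therefore came with SEs of 0.59 and 0.60, and the adjusted p values were 1 and 0.650. That of 51B/+ was -0.71 (SE 0.60), and -0.83 without its replicate 3. Without replicate 4 of the V966M strain compared, the difference lay closer to 0, and over the leave-outs it ran from -2.23 to -0.33 for V966M and from -1.94 to -0.38 for V966M/+.

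The factors of precursor cutting come next. *armi* encodes an RNA helicase that hands precursors to the cutting machinery, and lies on chromosome 3L at 3461317 to 3466314. It had 23.2 and 17.4 CPM in *w*, 20.1 and 25.1 CPM in 51B, 18.5 and 21.3 CPM in 51B/+, 21.9 and 19.3 CPM in V966M, and 25.1 and 23.9 CPM in V966M/+. With 413 to 1278 reads per library it was the best measured of the 10 genes, and its differences from *w* ran from -0.03 (SE 0.19) in 51B/+ to 0.27 (SE 0.19, 95% interval -0.16 to 0.70) in V966M/+. Without replicate 3 of 51B/+ the value of that strain was 0.07 (SE 0.25). Over all 4 strains the intervals of *armi* reached from -0.47 to 0.70 on the log2 scale. The annotation used here also lists *CG46463* over 99.6% of the exon bases of *armi* on the same strand, and that gene had no row of its own, so the row named *armi* may hold reads of both.

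*zuc* encodes the endonuclease of the mitochondrial outer membrane that cuts piRNA precursors, on chromosome 2L at 11988735 to 11989882. It measured 1.48 and 1.98 CPM in *w*, 1.33 and 1.74 CPM in 51B, 1.69 and 1.58 CPM in 51B/+, 1.62 and 2.30 CPM in V966M, and 2.45 and 2.06 CPM in V966M/+. V966M/+ was the only strain of these whose libraries both lay above both *w* libraries, by 0.40 on the log2 scale (SE 0.30, adjusted p = 0.734). The difference of 51B/+ was -0.07, and -0.12 without its replicate 3.

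**Figure D2:**
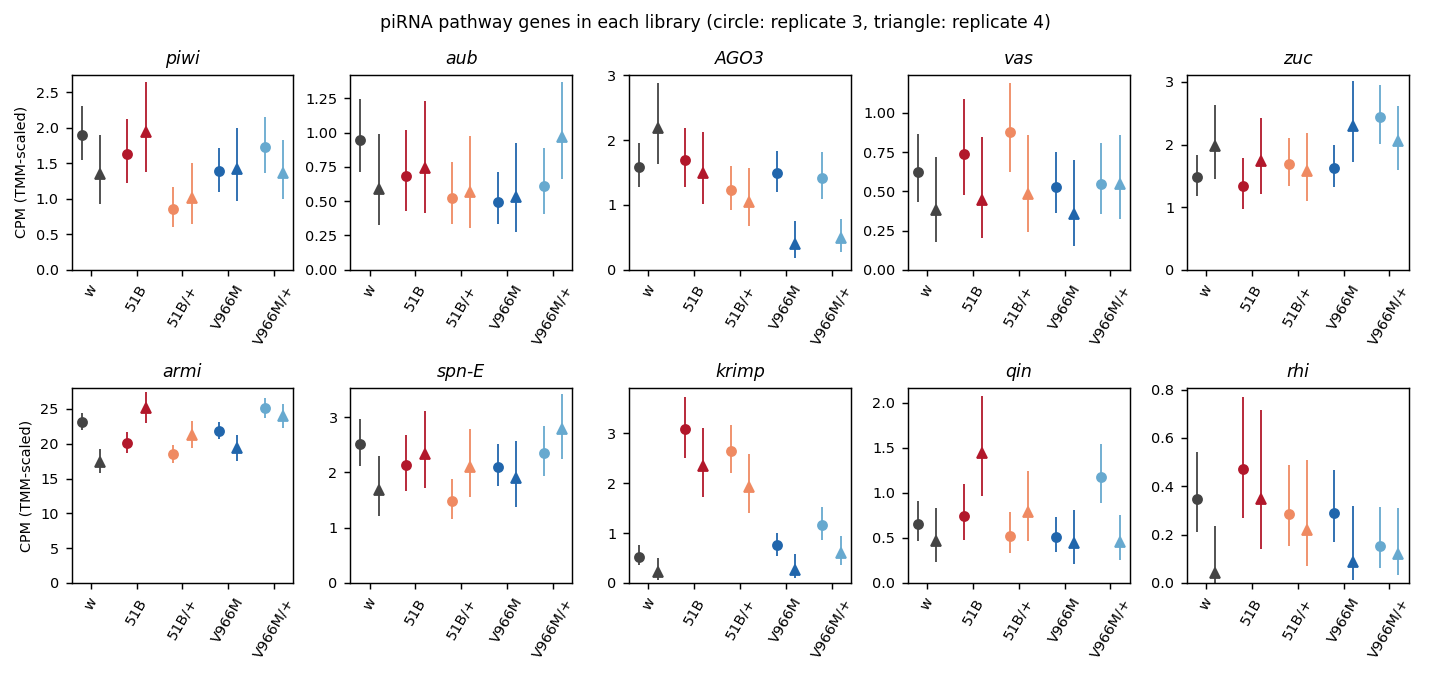
Level of each of the 10 piRNA pathway genes in each library, in TMM-scaled CPM on linear axes that start at 0, by strain label, with circles for replicate 3 and triangles for replicate 4. Bars are 95% Poisson intervals of the read count and cover counting error only. The 4 libraries of 51B and 51B/+ stand above the other 6 for *krimp* (1.93 to 3.08 CPM against 0.211 to 1.16 CPM).

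The only call against *w* by edgeR among these genes fell on a nuage factor of the ping-pong cycle. *krimp* encodes a Tudor domain protein of nuage that binds Aub and AGO3, and lies on chromosome 2R at 16238103 to 16240722, where no other annotated gene overlaps it. Replicates 3 and 4 had 29 and 5 reads in *w*, which correspond to 0.530 and 0.211 CPM. The libraries labelled 51B had 104 and 47 reads (3.08 and 2.34 CPM), and those labelled 51B/+ had 121 and 44 reads (2.65 and 1.93 CPM). The V966M libraries had 44 and 6 reads (0.753 and 0.265 CPM) and the V966M/+ libraries 53 and 20 reads (1.16 and 0.606 CPM). All 4 libraries of 51B and 51B/+ lay above the other 6, V966M overlapped *w*, and both V966M/+ libraries lay above both *w* libraries. The counting interval of the lowest of those 4, 1.40 to 2.58 CPM in replicate 4 of 51B/+, lay above that of *w* replicate 3, 0.355 to 0.760 CPM, and overlapped that of V966M/+ replicate 3, 0.867 to 1.52 CPM, the highest of the other 6.

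Mean *krimp* levels were 0.370 ± 0.225 CPM (SD, n = 2) in *w*, 2.71 ± 0.524 CPM in 51B and 2.29 ± 0.512 CPM in 51B/+. They were 0.509 ± 0.345 CPM in V966M and 0.882 ± 0.390 CPM in V966M/+. In the edgeR fit *krimp* was higher in 51B/+ than in *w* by 2.53 on the log2 scale (SE 0.56, 95% interval 1.25 to 3.8, adjusted p = 0.0873), which passed the threshold. In 51B the difference from *w* was 2.77 (SE 0.57, 95% interval 1.49 to 4.05) with an adjusted p of 0.107, which did not pass. DESeq2, run on the same counts, gave adjusted p values of 0.00181 for 51B and 0.00503 for 51B/+. The direct difference between 51B and 51B/+ was 0.24 (SE 0.50, 95% interval -0.90 to 1.38), and 0.50 without replicate 3 of 51B/+. Against *w*, V966M stood at 0.46 (SE 0.58, adjusted p = 1) and V966M/+ at 1.16 (SE 0.57, adjusted p = 0.5). In the fits without 1 library the 51B difference from *w* ran from 2.35 to 3.66 and still did not pass. The call for 51B/+ rests on few libraries. Without replicate 3 of 51B/+, the library with testis and Y-linked reads, the difference was 2.27 with an adjusted p of 0.386. It was 3.41 (adjusted p = 0.202) without replicate 3 of *w* and 2.11 (adjusted p = 0.362) without replicate 4 of *w*. Without replicate 4 of 51B/+ it was 2.70 and still passed, with an adjusted p of 0.0533.

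*krimp* also differed with the replicate number. Replicate 3 was higher than replicate 4 in all 5 strains, by 0.80 on the log2 scale with strain as a covariate (SE 0.22, adjusted p = 0.0848). Within replicate 3 the ratio to *w* was 5.81 for 51B, 5.01 for 51B/+, 1.42 for V966M and 2.19 for V966M/+. Within replicate 4 the same ratios were 11.1, 9.13, 1.26 and 2.87, over the 5 reads of that *w* library. The order of the strains by *krimp* was thus the same within each number. The replicate call was lost in 9 of the 10 fits that left out 1 library (adjusted p 0.102 to 0.213), and was kept without replicate 3 of 51B/+ (0.91, adjusted p = 0.0981).

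**Figure D3:**
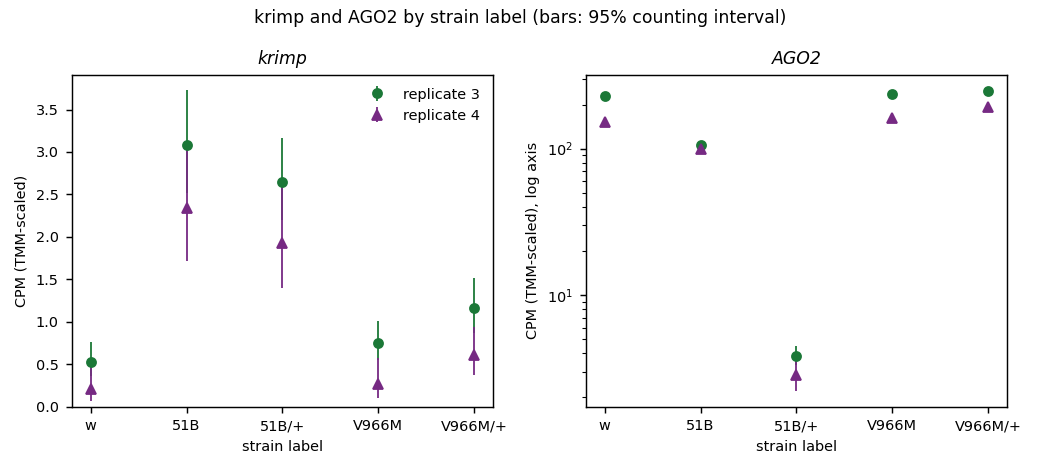
*krimp* (left, linear axis) and *AGO2* (right, log axis) in TMM-scaled CPM by strain label, with circles for replicate 3, triangles for replicate 4 and bars for 95% Poisson intervals of the read count. *krimp* is high in both libraries of 51B and of 51B/+, whereas *AGO2* is at 105 and 99.7 CPM in 51B and at 3.85 and 2.84 CPM in 51B/+.

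By strain mean, *AGO2* stood at 53.8% of *w* for 51B, 1.76% for 51B/+, 104.5% for V966M and 116% for V966M/+. *krimp* stood at 731%, 618%, 138% and 238% of *w* in the same order, and was highest in both strains with less *AGO2*. *AGO2* differed between 51B and 51B/+ by 4.92 on the log2 scale (SE 0.33, adjusted p = 0.00043), where *krimp* differed by 0.24. Of the 23 tested genes within 50 kb of *krimp*, 0 were called against *w* in any of the 4 strains, beside 0.125% to 1.79% of all genes. Their log2 fold changes had a median of 0.00 in 51B (-0.56 to 1.77) and of -0.02 in 51B/+ (-1.44 to 6.16, the highest being *CG15708*, with a mean of 0.046 CPM). These neighbour values include replicate 3 of 51B/+ and were not summarized without it. Set beside V966M, *krimp* was higher in 51B by 2.31 (SE 0.55, adjusted p = 0.414 by edgeR and 0.0472 by DESeq2), and beside V966M/+ it was higher in 51B/+ by 1.36 (SE 0.52, adjusted p = 0.206 and 0.176), or 1.11 (adjusted p = 0.624 by edgeR) without replicate 3 of 51B/+. The calls differ between the tools for the first pair. The *krimp* groups did not overlap in either pair, but the share of all genes that did so was not computed for these pairs. Against *w* that share was 30.8% to 41.7%.

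*vas* encodes a DEAD-box RNA helicase of nuage and a standard marker of germ cells, on chromosome 2L at 15061656 to 15074311. It had 0.621 and 0.380 CPM in *w*, 0.740 and 0.447 CPM in 51B, 0.876 and 0.481 CPM in 51B/+, 0.530 and 0.354 CPM in V966M, and 0.546 and 0.546 CPM in V966M/+. Its highest value stood in replicate 3 of 51B/+, and the difference of that strain from *w*, 0.43 (SE 0.49, adjusted p = 0.823), was -0.10 without that library. *vas* shares 24.6% of its exon bases with *solo* on the same strand, so its counts of 8 to 40 reads may leave out reads of the shared bases. It also holds *vig* between its exons on the opposite strand, with no exon bases in common.

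*spn-E* encodes a Tudor domain RNA helicase of nuage, on chromosome 3R at 15837419 to 15844415. It measured 2.52 and 1.69 CPM in *w*, 2.13 and 2.34 CPM in 51B, 1.49 and 2.10 CPM in 51B/+, 2.10 and 1.90 CPM in V966M, and 2.36 and 2.79 CPM in V966M/+. Every strain overlapped *w*, and the differences from it ran from -0.26 in 51B/+ to 0.27 in V966M/+, with SEs of 0.29. Without replicate 3 of 51B/+ the value of that strain was -0.02 (SE 0.36).

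*qin* encodes a protein with Tudor domains that keeps ping-pong between unlike partners, Aub and AGO3. It spans 59111 bases of chromosome 3R, from 18591027 to 18650137, and shares 0.6% of its exon bases with other genes. The level was 0.657 and 0.464 CPM in *w*, 0.740 and 1.44 CPM in 51B, 0.526 and 0.788 CPM in 51B/+, 0.513 and 0.442 CPM in V966M, and 1.18 and 0.455 CPM in V966M/+. Both 51B libraries lay above both *w* libraries, by 0.91 on the log2 scale (SE 0.55), and the 95% interval included 0. The difference of 51B/+ was 0.18, and 0.46 without its replicate 3.

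*rhi* encodes a heterochromatin protein that marks the piRNA clusters of germ cells for transcription, on chromosome 2R at 17628491 to 17633516, within the span of *CG10936* but outside its exons. It had 1 to 19 reads per library, fewer than any other of the 10 genes. The level was 0.347 and 0.0422 CPM in *w*, 0.473 and 0.348 CPM in 51B, 0.285 and 0.219 CPM in 51B/+, 0.291 and 0.0885 CPM in V966M, and 0.153 and 0.121 CPM in V966M/+. With SEs near 0.86, the intervals of its differences from *w*, taken over all strains, reached from -2.63 to 2.86 on the log2 scale. These ends belong to different strains and are not a limit of detection, but large differences either way stay compatible with the values. The difference of 51B/+ was 0.24, and -0.03 (SE 1.05) without its replicate 3.

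Counted over the group, the 10 genes gave few calls. Against *w*, 0 of 10 were called in 51B by edgeR (1 had an unadjusted p under 0.05 and DESeq2 called 1), beside 0.738% of all genes tested. In 51B/+ *krimp* was called, 1 of 10 beside 1.79% of all genes, and the count was 0 without replicate 3 of 51B/+ or without either *w* library. In V966M 0 of 10 were called (0 at an unadjusted p under 0.05, 0 by DESeq2) beside 0.125%, and in V966M/+ likewise 0 of 10 (0 and 0) beside 1.14%. The share of genes whose 2 libraries lay both above or both below those of *w* was 41.7% for 51B over all genes tested, and 3 of the 10 did so, all higher. It was 37.9% for 51B/+, where 1 was higher and 3 were lower. For V966M it was 30.8%, with 2 of the 10, both lower, and for V966M/+ 39.5%, with 3 higher and 1 lower. The counts of the 10 genes were near these background shares. The median log2 fold change of the 10 genes was 0.13 for 51B, -0.05 for 51B/+, -0.13 for V966M and 0.18 for V966M/+, where that of all genes was -0.02, 0.02, -0.02 and 0.00. Each of the 4 medians changed sign without 1 of the *w* libraries.

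Between the mutant strains no member of the group was called by edgeR. The count was 0 of 10 for 51B against 51B/+ (1 at an unadjusted p under 0.05, 0 by DESeq2) beside 0.0812% of all genes, and 0 of 10 for V966M against V966M/+ (0 and 0) beside 6.70%. For 51B against V966M it was 0 of 10 (1 and 1) beside 0.118%, and for 51B/+ against V966M/+ 0 of 10 (2 and 0) beside 6.07%. Between replicate numbers 1 of 10, *krimp*, was called, beside 9.73% of all genes. All comparisons with *w* share its 2 libraries.

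**Figure D4:**
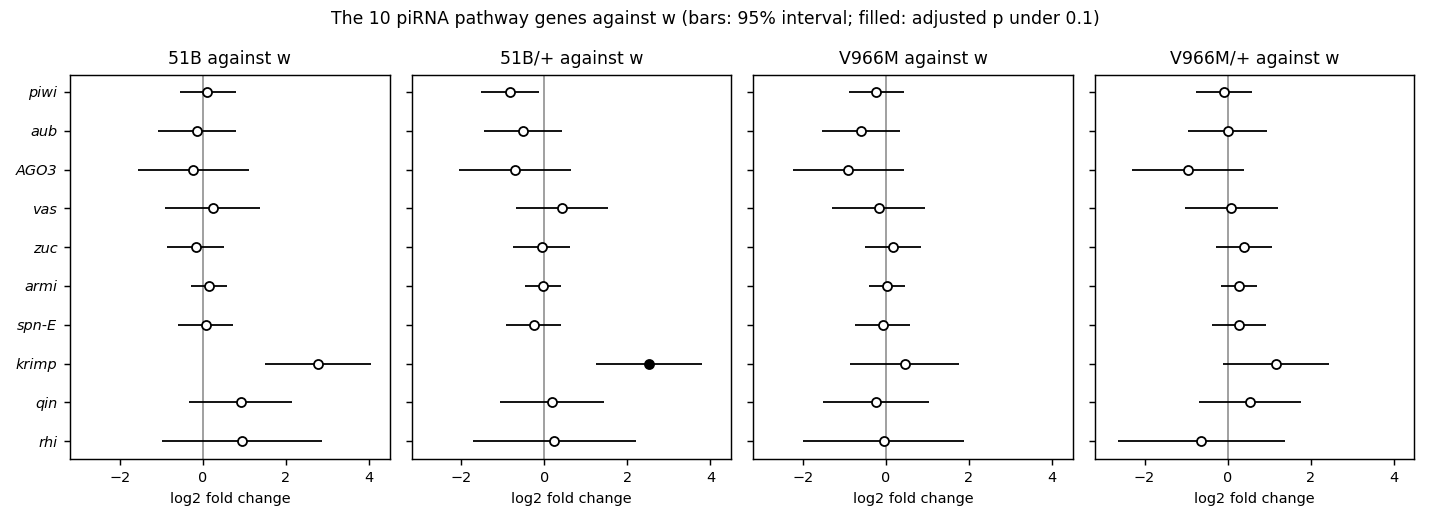
Log2 fold change of each of the 10 genes against *w* in the 4 mutant strains, with 95% intervals as bars, a filled point for an adjusted p under 0.1 by edgeR and open points otherwise. *krimp* in 51B/+ is the 1 filled point, at 2.53, and the interval includes 0 in 37 of the 40 comparisons.

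Of the 40 intervals against *w*, 37 included 0, and the other 3 were those of *krimp* in 51B and in 51B/+ and of *piwi* in 51B/+. The width of the intervals differed between genes, from *armi*, where changes beyond 0.70 on the log2 scale lay outside all 4 intervals, to *AGO3* and *rhi*, whose intervals reached -2.30 and -2.63. A difference that missed the threshold in the rarer genes is therefore compatible with a change of more than 1 on the log2 scale.

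The rest of the pathway was read from 2 further lists, chosen by role. Of 22 other factors known from the gonads 21 were tested, and 1 was called against *w*, in 51B/+, where 1.79% of all genes were called. In the other 3 strains 0 of 21 were called by edgeR and by DESeq2 (2 or 3 at an unadjusted p under 0.05), beside 0.125% to 1.14% of all genes. *BoYb*, a Tudor domain protein of germline nuage, had 0.365 and 0.337 CPM in *w*, 0.621 and 0.696 CPM in 51B, and 1.18 and 1.09 CPM in 51B/+. The V966M libraries had 0.291 and 0.310 CPM and the V966M/+ libraries 0.437 and 0.485 CPM, so both libraries of 51B/+ lay above the other 8. It was higher in 51B/+ than in *w* by 1.68 (SE 0.38, adjusted p = 0.0952, and 0.0772 by DESeq2). This call was lost without replicate 3 of 51B/+ (1.62, adjusted p = 0.363), replicate 3 of *w* (1.73, adjusted p = 0.510) or replicate 4 of *w* (1.63, adjusted p = 0.388), and also with no count filter (adjusted p = 0.145) or with 2 strains fitted alone (adjusted p = 0.358). The medians of this list against *w* were -0.01 for 51B, -0.11 for 51B/+, -0.14 for V966M and 0.07 for V966M/+.

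Another 2 of the 21 were called between 51B/+ and V966M/+, where 6.07% of all genes were called, and are named because of their values. *SoYb*, the sister gene of *BoYb*, had 0.657 and 0.788 CPM in 51B/+ and 3.10 and 2.91 CPM in V966M/+, between which *w* lay at 1.74 and 1.39 CPM. The difference was -2.07 on the log2 scale (SE 0.31, adjusted p = 0.0172). *mael*, a nuclear and nuage factor of silencing, had 1.31 and 0.963 CPM in 51B/+ and 0.459 and 0.394 CPM in V966M/+, with 0.530 and 0.422 CPM in *w*, and differed by 1.42 (SE 0.38, adjusted p = 0.0889). Without replicate 3 of 51B/+ these differences were -1.93 (adjusted p = 0.125) and 1.16 (adjusted p = 0.386), so neither call was kept. The call for *mael* was also lost without replicate 3 (adjusted p = 0.187) or replicate 4 (adjusted p = 0.392) of V966M/+ and with no count filter (adjusted p = 0.117). With 2 strains fitted alone neither passed (adjusted p = 0.112 for *SoYb* and 0.273 for *mael*). Over all 21 factors, 10 were higher and 11 lower in 51B/+ than in V966M/+.

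Of 9 factors with roles beyond piRNAs 8 were tested, and 0 were called against *w* (by edgeR, and by DESeq2; 1 had an unadjusted p under 0.05, in 51B/+), beside 0.125% to 1.79% of all genes. The 3 with the largest differences at a mean of at least 1 CPM were *vls*, a subunit of the arginine methyltransferase complex that modifies Piwi proteins, at 0.50 (SE 0.29, and 0.60 without replicate 3 of 51B/+) in 51B/+, *csul*, the methyltransferase itself, at -0.40 (SE 0.15, adjusted p = 0.337, and -0.35 without replicate 3) in 51B/+, and *wde*, a cofactor of histone methylation, at 0.34 (SE 0.23) in V966M/+.

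The source of somatic piRNAs gave almost no counted polyadenylated reads. The *flam* locus had 0 to 6 reads per library. As a cluster of transposon fragments it may also hold reads that are hard to assign, which was not tested. *Ste12DOR*, a member of the *Stellate* family that piRNAs silence in the male germ line, had 0 to 4 reads. The other *Stellate* and *Su(Ste)* rows are near-identical copies whose reads are hard to assign and were at or near 0, so no difference could be read from them.

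**Figure D5:**
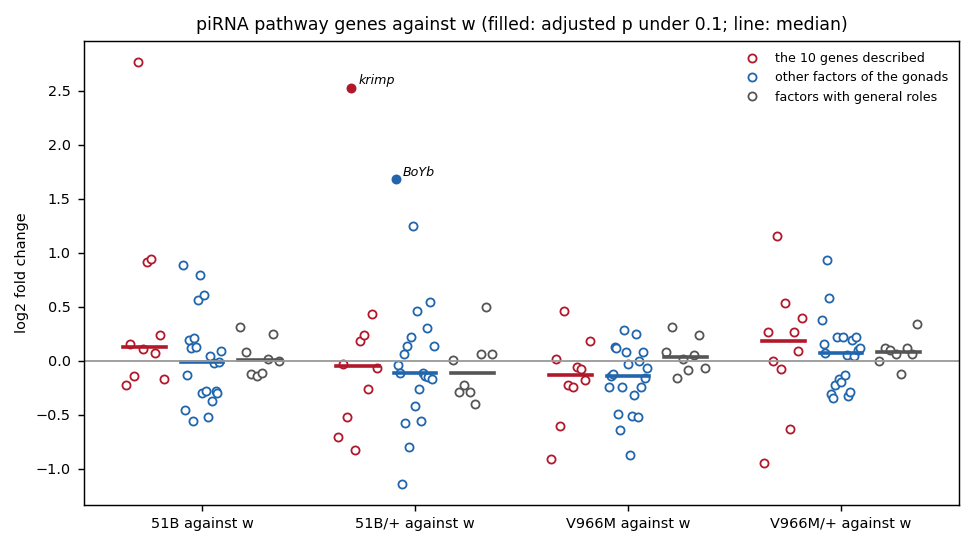
Log2 fold change against *w* in the 4 mutant strains for the 10 genes described, 21 other factors of the gonads and 8 factors with general roles. Each circle is a gene, filled where the adjusted p by edgeR was under 0.1, and each line is the median of its list. *krimp* at 2.53 and *BoYb* at 1.68, both in 51B/+, are the filled points, and the list medians lie between -0.14 and 0.18.

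The 10 genes did not move as a unit across libraries. Of the 45 pairs among them 31 had a positive Pearson r of log2 CPM over the 10 libraries, with a median of 0.17, from -0.75 for *zuc* and *rhi* to 0.86 for *armi* and *spn-E*. *krimp* was most like *rhi* (0.78) and *vas* (0.66) within the group. These values are descriptions, since libraries share strain, replicate number and depth, and the rarer genes carry counting error.

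Among 9650 genes whose mean reached 1 CPM, the gene most like each of the 10 was sought by the same r over 10 libraries. For *krimp* it was the noncoding RNA gene *lncRNA:CR43650* (r = 0.977), also on chromosome 2R, which had 7.85 and 5.61 CPM in *w*, 20.1 and 15.8 CPM in 51B, 23.5 and 15.0 CPM in 51B/+, 9.73 and 6.55 CPM in V966M, and 12.6 and 7.91 CPM in V966M/+. The others were *elg1* for *piwi* (0.917), *slp2* for *aub* (0.844), *CG40470* for *AGO3* (0.874), *CG3744* for *armi* (0.953), *CG17361* for *zuc* (0.872), *CG30122* for *vas* (0.948), *Vps8* for *spn-E* (0.951), *alpha-Man-Ib* for *qin* (0.886) and *CG6230* for *rhi* (0.953). Ranked by Spearman's rho instead, 0 of the 10 kept the same partner, and *LanB1* stood first for *krimp* (0.988). For *krimp*, 10 genes, *lncRNA:CR43650* included, lay within 0.05 of the highest r. *lncRNA:CR43650* also differed between replicate 3 and replicate 4, by 0.54 on the log2 scale (adjusted p = 0.0283 by edgeR).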

How the data were processed

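After trimming with cutadapt 1.10, the authors aligned the single-end reads to dm6 with HISAT2 2.0.4 and deposited raw counts per FlyBase gene from featureCounts 1.5.0-p3 (versions per the submitters' processing notes). All 10 columns were mapped to a labelled sample. Coordinates came from the Ensembl annotation of dm6, which held 98.9% of the rows.

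Genes with 10 or more summed counts (13551) were tested with edgeR 4.0.16 in R 4.3.3 (TMM, glmQLFit with robust estimation, glmQLFTest), with strain as the factor over all libraries. A call is a Benjamini-Hochberg adjusted p under 0.1 over all genes tested. Alternatives were DESeq2 1.42.0, RLE factors, no count filter, filterByExpr, 2 strains fitted alone, the replicate number as a block, and leaving out each library. Likeness used log2 CPM with a prior count of 0.5. Poisson intervals (95%) and the limit of 3 reads include no error besides that of counting, as PCR duplicates were kept. Libraries of a strain differed by far more than sampling noise (chi-square per degree of freedom 118.2 to 227.6).

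The 10 genes and the lists were chosen with earlier results of these data known. Named genes were those 10, *AGO1* and *AGO2*, genes overlapping them, the gene most like each, *flam*, and from the further piRNA lists those called against *w* or, where there were none, the 3 with the largest change at a mean of at least 1 CPM. Outside this rule, *SoYb*, *mael*, *CG15708* and *Oxp* were named after their values were seen. Also outside it were *Ste12DOR*, *LanB1* (first by Spearman's rho) and the genes named from the female germline list, which is not named in full. The symbols *boot*, *sov* and *nos* were not matched and not analysed here.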

Additional observations from a re-analysis of the deposited data

Results flagged for a closer look

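With 2 libraries a strain, no test for an outlying library within a strain was made. Among the named genes, the differences between 2 mutant strains past the threshold by edgeR were those of *AGO2*, at 4.92 on the log2 scale (SE 0.33, adjusted p = 0.00043) for 51B against 51B/+ and -6.03 (SE 0.34, adjusted p = 0.000136) for 51B/+ against V966M/+, of *SoYb* at -2.07 (SE 0.31, adjusted p = 0.0172) and of *mael* at 1.42 (SE 0.38, adjusted p = 0.0889), both for 51B/+ against V966M/+.

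Another pattern was that a gene was higher in both libraries of one strain than in both of *w*, and lower in both libraries of another strain. All these strains share the 2 *w* libraries, and with 2 libraries a group such patterns are common, as the shares of non-overlapping genes in the report show. Besides *SoYb*, whose 51B/+ and V966M/+ libraries lay on opposite sides of *w*, the pattern was met by *BoYb* between 51B and V966M (a log2 difference of 1.13, adjusted p = 0.825) and between V966M and V966M/+ (-0.62, adjusted p = 0.447). The difference of *BoYb* between 51B/+ and V966M, 1.92, was not tested.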

How the results depend on the processing

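*krimp* was the only one of the 10 genes whose call depended on a setting. For 51B against *w*, 1 of the 10 was called in place of 0 with DESeq2, with no count filter, with 2 strains fitted alone and with the replicate block. That call was not gained with RLE factors or filterByExpr, nor without 1 library. For 51B against V966M it was 1 in place of 0 with DESeq2 and with the replicate block, and for 51B/+ against V966M/+ 1 in place of 0 with the replicate block. For 51B/+ against *w* it was 0 in place of 1 with 2 strains fitted alone, and 0 to 1 without 1 library. For replicate 3 against replicate 4 it was 0 in place of 1 with DESeq2, and 0 to 1 without 1 library. The cause was not tested, other than that a fit without a library holds fewer samples. With the replicate block the *krimp* difference was 2.88 (adjusted p = 0.0142) in 51B and 2.63 (adjusted p = 0.00998) in 51B/+ against *w*. Replicate minus replicate differences correlated between strains at 0.074 to 0.301 over all genes, and with 2 numbers this does not show that the numbers pair the samples. No median log2 fold change over the 10 genes moved by more than the spread between replicates, but each turned direction without 1 *w* library, to -0.01 for 51B and -0.08 for V966M/+ without replicate 4 and to 0.12 for 51B/+ and 0.14 for V966M without replicate 3. Of 920 recomputed fold changes 72 changed sign, none of them called, and the largest of these was 0.77 in the reported fit. Scaling by library total moved 11 of 50 strain levels by more than 1 SD. At 1 to 54 reads per library, depth limits what *vas*, *aub*, *qin* and *rhi* can show.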

Other observations

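*Oxp* is a small gene that starts close to *rhi* on chromosome 2R (17633797 to 17634167), and was named after its values were seen. It was the 1 of 19 tested genes within 50 kb of *rhi* that was called against *w* in 51B and in 51B/+. Of all genes tested, 0.738% were called against *w* in 51B and 1.79% in 51B/+. Windows of 50 kb around every piRNA gene described here were searched, and *Oxp* was picked from the whole search. Whether calls gather near *rhi* was not tested. *Oxp* had 2 and 0 reads in replicates 3 and 4 of *w*. It had 61 and 13 reads in 51B (1.80 and 0.646 CPM) and 47 and 19 reads in 51B/+ (1.03 and 0.831 CPM). The V966M libraries had 4 and 3 reads and the V966M/+ libraries 11 and 4 reads. The adjusted p by edgeR was 0.0483 for 51B and 0.0353 for 51B/+ against *w*. The call for 51B was lost without replicate 3 or 4 of 51B (adjusted p = 0.28 and 0.11) and without replicate 3 or 4 of *w* (0.22 and 0.21). The call for 51B/+ was lost without replicate 3 of 51B/+ (adjusted p = 0.138), the library with testis reads, and without replicate 3 or 4 of *w* (0.165 and 0.154), and was kept without replicate 4 of 51B/+ (0.0247). With 2 strains fitted alone, the *Oxp* call for 51B/+ was also lost (adjusted p = 0.142 by edgeR), while that for 51B was kept (0.0061). *rhi* itself was not called in either strain, and the spans of both genes do not overlap.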
